A study of Homo sapiens with 2 samples.

Results

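The genes described here encode the subunits of the proteasome, the proteins that help to build it, and its activators and inhibitor. They were taken from the deposited table by symbol: PSMA, PSMB, PSMC, PSMD, PSME, PSMF or PSMG followed by a digit, with PSMB8 and PSMB9 left out. This gave 45 of the 12918 genes in the table, and 165 listed transcripts belonged to them. All 45 reached 1 FPKM (fragments scaled by transcript length and by library depth) in at least 1 library; PSMA8 and PSMB11, which the same rule would take, had no listed transcript. For the comparison of core with cap, 15 genes were counted to the 20S core, 17 to the 19S cap and 13 to neither. The cap subunits SEM1 and ADRM1 carry other symbols and were kept with the partner genes.

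Both libraries came from MDA-MB-231, a human cell line grown from a triple-negative breast cancer, kept in L15 medium with serum and harvested 48 h after transfection. In 1 library the cells had received the Smart Silencer against THAP7-AS1, a long noncoding RNA gene, and in the other the negative control si-NC. The question of the study was how the transcriptome differs once THAP7-AS1 is silenced. THAP7-AS1 had no listed transcript, so its silencing could not be checked. The table names its columns si-nc and si-v; the second was taken as the silencer library by elimination, is called the si-v library here, and gives every direction below. The labels name MDA-MB-231, and its mesenchymal markers were high (VIM at 344 FPKM in si-NC and 373 in si-v, AXL at 259 and 204). ESR1 was listed at 0 in both, CDH1 stood at 0.0845 and 0.122, EPCAM at 11.3 and 12.8, ERBB2 at 4.65 and 17.4, and PGR had no listed transcript. About 7830000 fragments of the control and 8320000 of the si-v library lay on the listed transcripts. With 1 library per group there was no replicate check and no test, so each statement describes these 2 libraries, in whose bulk RNA fewer cells with a transcript and less of it per cell cannot be told apart.

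The proteasome is the main protease of the cytosol and nucleus and degrades proteins tagged with ubiquitin. Its 20S core is a barrel of stacked rings: outer rings of alpha subunits (PSMA) gate the entry, and inner rings of beta subunits (PSMB) carry the proteolytic sites. The 19S cap binds the ubiquitin tag, removes it, unfolds the protein with a ring of ATPases (PSMC) and feeds it into the core; the PSMD genes encode its other subunits. Subunit genes are known to be induced together when proteolysis falls short, through NFE2L1, a membrane-bound transcription factor that is cut free and enters the nucleus.

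Core and cap genes were close in level in the 2 libraries, and 22 of 32 stood higher in si-v. With each gene represented by its most abundant transcript alone, 17 of 32 did. The other settings tried gave 21 to 24. Summed over its 15 genes the core stood at 1116 FPKM in si-NC and 1258 in si-v, 1.13-fold. The cap, with 17 genes, stood at 1135 and 1407, 1.24-fold. Single genes weighed on these sums: without PSMD2 the cap went from 999.8 to 1189, 1.19-fold, and without PSMA7 the core went from 801 to 878, 1.10-fold. Core and cap together held 0.748% of all FPKM in si-NC and 0.895% in si-v.

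Gene by gene, differences are given as the log2 ratio of si-v to control after adding 1 FPKM to each. The core had a median of 0.10, with 10 of 15 genes higher, and the cap one of 0.21, with 12 of 17 higher. Over all 11046 genes that reached 1 FPKM the median was 0.00, and 50.4% were higher (52.3% of the 5334 genes with a mean of at least 10 FPKM). Cap minus core was thus 0.10. With SEM1 and ADRM1 added to the cap, a choice made after seeing the data, its median was 0.31, with 14 of 19 higher. On fragments per gene, where a gene's reads are counted without dividing by the length of each transcript, the medians were 0.13 for the core and 0.12 for the cap, a difference of -0.02. Without PSMB10, or without PSMA7, the core median on fragments was 0.09, below that of the cap, so the sign of this difference hung on single genes. With fragments rescaled so that the pseudocount of 1 applies, the difference was 0.0097. The gap of 0.10 on summed FPKM was therefore not seen at that size on the fragment scale.

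**Figure D1:**
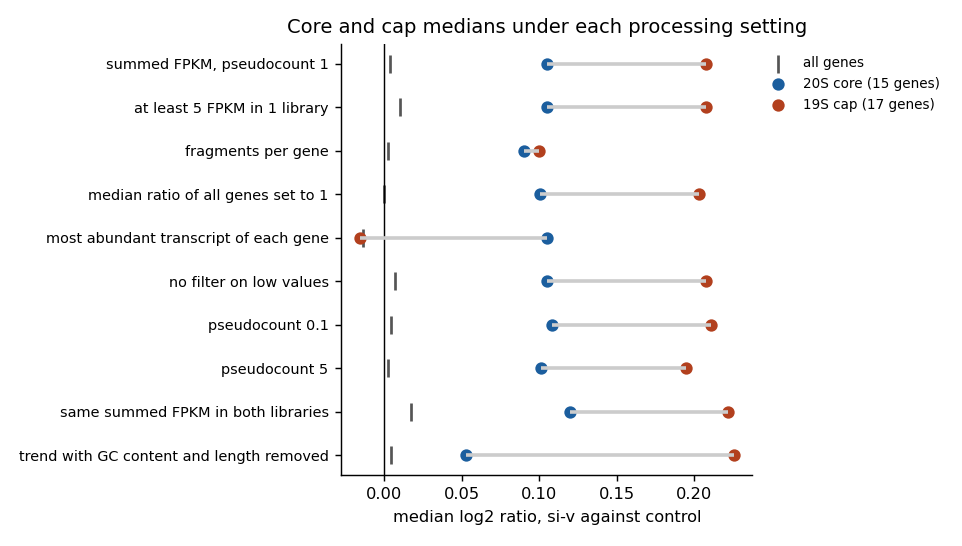
Median log2 ratio (horizontal axis, si-v against control) of the 20S core (blue, 15 genes), the 19S cap (red-brown, 17 genes) and all genes (grey tick) under each of 10 processing settings (rows). The cap lies right of the core in 9 settings, which are not separate checks. Changes of filter, pseudocount or library scale leave cap minus core nearly as it was (0.094 to 0.103). The gap is narrow on fragments per gene (0.0097) and wider with a trend on GC content and length removed (0.17). The cap lies left of the core where a gene is represented by its most abundant transcript alone (-0.12).

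Of the 45 genes 3 were 1.5-fold or more higher in si-v (6.67%), against 9.82% of all genes, and 0 were that much lower, against 8.91%. At 2-fold the counts were 0 and 0, against 2.37% and 2.49%. Among genes with a mean of at least 10 FPKM the shares were 9.32% and 7.12% at 1.5-fold and 1.99% and 1.89% at 2-fold. Within 1.5-fold lay 42 of 45, against 81.3% of all genes and 83.6% of those at the higher level. The shares at 1.5-fold and 2-fold were below those over all genes, but they rest on 3 and 0 of 45 genes. The backgrounds were also not matched in level. In the control the median gene stood at 45.3 FPKM among the 45, 9.44 over all genes and 23.8 at the higher level. The 3 genes 1.5-fold or more higher were PSMG3, PSMD2 and PSMC3, and none of them was past 1.5-fold in every setting tried. On fragments per gene with the same pseudocount only PSMG3 was (PSMD2 0.42, PSMC3 0.54), against 9.13% of all genes. With a trend on GC content and length removed only PSMD2 was (PSMC3 0.46, PSMG3 0.54), against 7.34%. With 1 transcript per gene, the most abundant by the mean of the 2 libraries, PSMD2 stood at -0.99. The count of genes 1.5-fold lower was then 4 of 45, against 14.4% of all genes in that setting.

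Counting error was smaller than many of these differences. Fragments per gene ran from 64 to 7330, and exact Clopper-Pearson intervals at 95% on them lay above 0 for 19 genes (42.2%), below 0 for 11 (24.4%) and across 0 for 15. Among genes with a mean of at least 10 FPKM, 39.4% lay above 0 and 32.3% below (31.6% and 28.7% over all genes). In the core 7 of 15 intervals lay above 0 and 4 below; in the cap 10 of 17 lay above and 1 below. These intervals hold neither the variation between cultures nor the division of reads among transcripts.

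**Figure D2:**
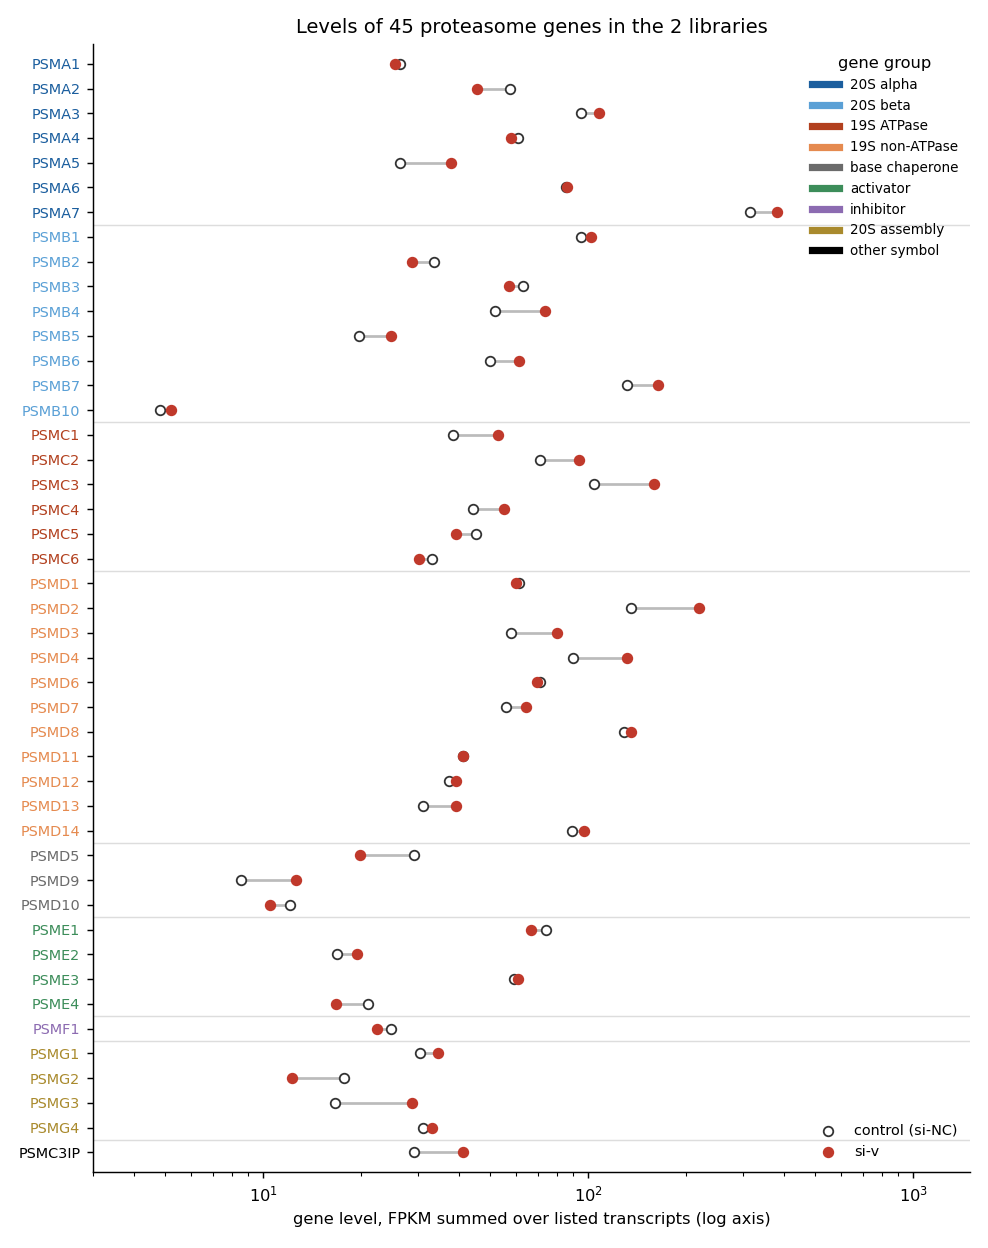
Level of each of the 45 genes (rows, coloured by group) as FPKM on a log axis, with open circles for the control and red circles for the si-v library. PSMA7 is highest in both at 315 and 380.0, PSMB10 is lowest at 4.81 and 5.20, and the 2 circles of most genes lie close together.

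The order of levels was nearly the same in both libraries (Spearman rho 0.96 over the 45 genes, a description, since both share the transcript models and their lengths). PSMA7, an alpha-ring subunit, ranked first in each. PSMD2, PSMB7 and PSMD8 followed in the control at 135, 132 and 129 FPKM, and PSMC3 at 105. Although the subunits of each ring stand side by side in the particle in equal number, their mRNA levels per length differed widely. In the control they ran from 26.4 (PSMA1) to 315 (PSMA7) in the alpha ring and from 33.0 (PSMC6) to 105 (PSMC3) among the ATPases.

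Alpha subunits form the gate of the core. PSMA7 stood at 315 FPKM in si-NC and 380.0 in si-v (log2 0.27; 0.29 on fragments, interval 0.22 to 0.35). PSMA3 was also higher, at 94.8 and 108 (0.19; 0.21 on fragments, 0.09 to 0.34). PSMA2 had the largest difference in the other direction, 57.4 and 45.6 (-0.33; -0.40 on fragments, -0.54 to -0.25). PSMA4 stood at 60.7 and 58.1 (-0.06), but its 910 and 839 fragments gave -0.20 (-0.34 to -0.07). PSMA1, at 26.4 and 25.5, and PSMA6, at 85.5 and 85.9, were close to level, and both fragment intervals included 0. PSMA5 stood at 26.4 and 38.0 (0.51), but at 841 and 801 fragments (-0.16, -0.30 to -0.02), so its direction depended on the scale. The group median was 0.01, with 4 of 7 higher.

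With the inducible PSMB10 left aside, the 3 beta subunits with proteolytic sites were all higher by similar amounts. PSMB5, the chymotrypsin-like site and the main target of proteasome inhibitors such as bortezomib, stood at 19.7 FPKM in si-NC and 24.8 in si-v (0.32; 0.34 on fragments, 0.11 to 0.58). PSMB6, the caspase-like site, stood at 49.9 and 61.3 (0.29; 0.32 on fragments, 0.15 to 0.50). PSMB7, the trypsin-like site, stood at 132 and 164 (0.32; 0.41 on fragments, 0.31 to 0.52). Their levels differed more from each other than between libraries.

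PSMB10, the inducible subunit that takes the place of PSMB7 in immunoproteasomes, was the lowest of the 45 genes, at 4.81 and 5.20; its 64 and 75 fragments leave a log2 ratio from -0.36 to 0.65 possible. PSMB4, a structural subunit, had the largest difference of the beta ring, 51.9 and 73.9 (0.50; 0.54 on fragments, 0.38 to 0.70). PSMB1 stood at 94.9 and 102 (0.10). Lower in si-v were PSMB2, at 33.5 and 28.8 (-0.21; -0.22 on fragments, -0.34 to -0.09), and PSMB3, at 63.2 and 57.0 (-0.15, with a fragment interval of -0.30 to 0.06). The beta group had 6 of 8 genes higher and a median of 0.20.

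The 6 ATPases unfold substrates at the base of the cap. PSMC3 was the highest of them and had the largest ratio, 105 FPKM in si-NC and 159 in si-v (0.60; 0.57 on fragments, 0.48 to 0.66), with each of its 8 listed transcripts higher. PSMC4 stood at 44.2 and 55.1 (0.31; 0.35 on fragments, 0.20 to 0.50). PSMC5 and PSMC6 were lower, at 45.3 and 39.4 (-0.20; fragment interval -0.35 to -0.05) and at 33.0 and 30.2 (-0.12; -0.29 to 0.00).

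The ratios of the other two ATPases came with a different division among transcripts. PSMC1 stood at 38.4 and 52.9 FPKM (0.45), but at 1594 and 1698 fragments, which is level for the depth of the libraries (0.00, -0.09 to 0.10). PSMC2 stood at 71.3 and 94.0 (0.39), and on fragments at 0.12 (0.02 to 0.21). PSMC1 also has 13 processed or other pseudogene symbols in the reference annotation, among which reads may have been divided. The ATPase median was 0.35 on FPKM and 0.06 on fragments.

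Among the 11 other cap subunits PSMD2 and PSMD4 had the largest ratios. PSMD4, a ubiquitin receptor, stood at 89.5 FPKM in si-NC and 131 in si-v (0.55; 0.58 on fragments, 0.48 to 0.68). PSMD2, the scaffold on which shuttle proteins dock, stood at 135 and 219 (0.69; 0.44 on fragments, 0.39 to 0.49). PSMD1, the other large scaffold of the base, was level at 61.3 and 60.01 (-0.03). These 3 subunits of the base were set apart after their values were seen.

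Of the lid, which removes the ubiquitin chain, 8 subunits have PSMD symbols; their median was 0.10, with 6 of 8 higher. SEM1, a small lid subunit outside the symbol rule, stood at 83.0 FPKM in si-NC and 111 in si-v (0.41; 0.44 on fragments, 0.34 to 0.55), and the median over the 9 was 0.13. PSMD14, the deubiquitinase, stood at 88.9 and 97.2 FPKM (0.13; 0.15 on fragments, 0.06 to 0.24), and its partner PSMD7 at 55.7 and 64.5 (0.21; 0.27 on fragments, 0.15 to 0.39). PSMD3 had the largest lid ratio, 57.7 and 80.3 (0.47; 0.52 on fragments, 0.42 to 0.62), and PSMD13 stood at 31.0 and 39.3 (0.33; 0.21 on fragments, 0.05 to 0.37). The others lay between -0.03 and 0.07: PSMD6 at 71.2 and 69.7, PSMD8 at 129 and 135, PSMD11 at 41.3 and 41.2, and PSMD12 at 37.2 and 39.1.

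**Figure D3:**
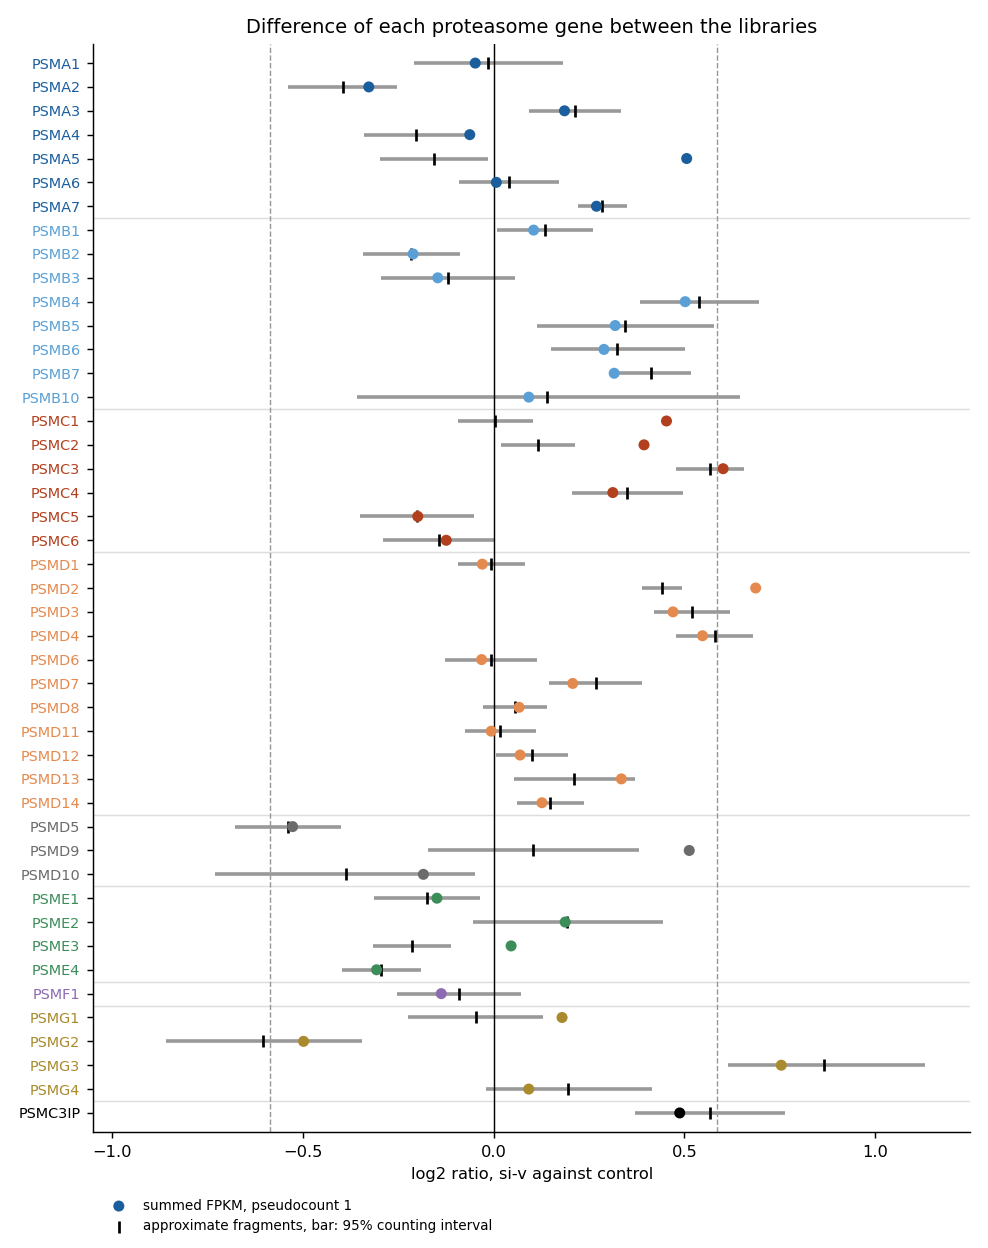
Log2 ratio of si-v to control for each gene (rows): coloured points from summed FPKM with a pseudocount of 1, black ticks from approximate fragments, grey bars the 95% counting interval of the latter, dashed lines 1.5-fold. Most points lie between the dashed lines, and 8 of them (PSMA4, PSMA5, PSMC1, PSMC2, PSMD2, PSMD9, PSME3, PSMG1) lie outside their own bars.

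Assembly factors and regulators did not follow one direction. PSMG3, which pairs with PSMG4 as a chaperone that helps the alpha ring to form, had the largest ratio of all 45 genes, 16.7 FPKM in si-NC and 28.8 in si-v (0.75; 0.87 on fragments, 0.61 to 1.13), from 189 and 367 fragments. Each of its 3 listed transcripts was higher. Its partner PSMG4 was close to level at 31.1 and 33.2 (0.09; fragment interval -0.02 to 0.41). PSMG3 has an annotated antisense gene, and as the strand setting is not known its reads could not be separated.

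In the other pair of alpha-ring chaperones the values went apart as well. PSMG2 stood at 17.7 and 12.3 (-0.50; -0.60 on fragments, -0.86 to -0.35), while PSMG1 stood at 30.5 and 34.6 (0.18; -0.05 on fragments, -0.23 to 0.13). Of the chaperones that assemble the ATPase base, PSMD5 was lower, 29.1 and 19.9 (-0.53; -0.54 on fragments, -0.68 to -0.40). PSMD10, also known as the oncoprotein gankyrin, stood at 12.1 and 10.5 (-0.18; -0.39 on fragments, -0.73 to -0.05), and PSMD9 at 8.57 and 12.7 (0.51; 0.10 on fragments, -0.17 to 0.38).

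PSME genes encode activators that open the core in place of the 19S cap. PSME1 and PSME2, which form the activator induced by interferon-gamma, stood at 74.2 and 66.9 FPKM (-0.15; fragment interval -0.31 to -0.04) and at 16.9 and 19.4 (0.19; -0.05 to 0.44). PSME3, its nuclear relative, stood at 59.0 and 61.0 (0.05, but -0.21 on fragments, -0.32 to -0.11). PSME4, a large activator linked to histone degradation, was lower, 21.0 and 16.8 (-0.31; -0.29 on fragments, -0.40 to -0.19). PSMF1, named as an inhibitor of the core, stood at 24.7 and 22.3 (-0.14; -0.25 to 0.07). Over these 13 genes outside core and cap the median was 0.05, with 7 higher. They include PSMC3IP, which the symbol rule takes although it encodes a partner of the recombinases of homologous recombination and not a proteasome subunit; it stood at 29.1 and 41.3 (0.49).

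The deposited values are per transcript, and they held larger differences than the gene sums. PSMD2 showed the largest shift. Its full-length transcript PSMD2-201 (3449 bases, 908 codons) stood at 132 FPKM in si-NC and 66.3 in si-v. PSMD2-205 (2574 bases, 749 codons) stood at 2.17 and 141. The share of PSMD2-205 in the gene thus went from 1.61% to 64.3%, and PSMD2-206, from the same start, went from 0.00 to 9.16 FPKM. In approximate fragments PSMD2-201 held 5016 and 2720, and PSMD2-205 61 and 4301.

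In the annotation PSMD2-205 begins in intron 3 of PSMD2-201, 1872 bases downstream of its start, and lacks the first 159 codons. The 2 transcripts share 2469 bases; 105 bases, the first exon, are found only in PSMD2-205, and 980 only in PSMD2-201. Only these unshared bases tell the 2 transcripts apart, and the reads over them were not analysed here. The intron sequence just before the start of PSMD2-205 is shown as it lies between exon 3 of PSMD2-201 and that start. It belongs to neither of the 2 transcripts. The sequence is from RefSeq on GRCh38.p14, plus strand, chr3:184300445-184300580, 136 bases with a GC content of 45.6%. It is all in lower case, as none of the motifs searched below occurs in it.
PSMD2 intron 3: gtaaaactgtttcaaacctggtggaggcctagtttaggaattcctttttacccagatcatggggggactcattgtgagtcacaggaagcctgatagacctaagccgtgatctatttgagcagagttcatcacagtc

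Other genes had shifts of the same kind. A transcript's share of its gene moved by 20 percentage points or more in 9 of the 40 genes with several listed transcripts, against 26.5% of 4416 genes with a mean of at least 10 FPKM and several transcripts, so the share of such shifts was not above the background. In the same 9 genes the most abundant transcript differed between libraries. In PSMA5 the long PSMA5-201 (3729 bases) went from 16.5 FPKM to 4.62 and the shorter PSMA5-206 (1504 bases) from 9.89 to 33.3.

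In PSMC1 the corresponding transcripts were PSMC1-201 (4448 bases), at 30.0 and 22.7 FPKM, and PSMC1-202 (1389 bases), at 8.35 and 30.3. PSMC2-201 (2637 bases) went from 45.9 to 26.2 and PSMC2-206 (1357 bases) from 5.51 to 28.8. In each the shorter transcript took the larger share in si-v. With the most abundant transcript alone, chosen by the mean of the 2 libraries, the ratios were 1.66 for PSMA5, -0.39 for PSMC1 and -0.79 for PSMC2. The transcripts so chosen were PSMA5-206, PSMC1-201 and PSMC2-201, and the ratios depend on that choice. As FPKM divides by length, the same number of fragments on a shorter transcript gives a larger FPKM.

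**Figure D4:**
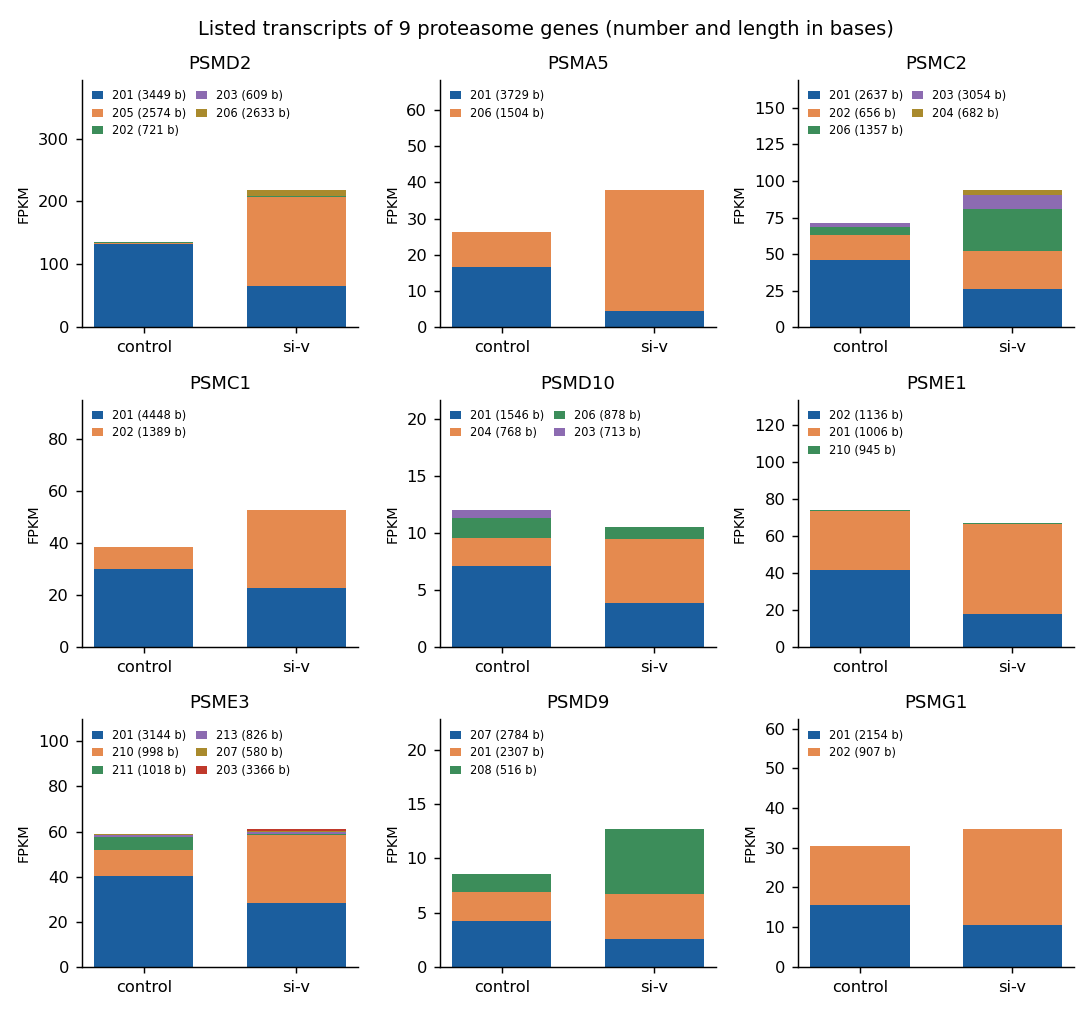
Listed transcripts of the 9 genes in which a transcript's share moved by 20 points or more, stacked as FPKM for the control and the si-v library (each panel has its own axis from 0). The legend gives each transcript's number and its length in bases (b), and in PSMD2 the bar of PSMD2-201 gives way to PSMD2-205.

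GC content moved with the ratios. Over the 32 core and cap genes the Spearman rho of ratio and GC content of the main transcript was 0.39, and 0.33 over all 11046 genes, given as a description, since the points share 2 libraries. PSMC3, PSMD3, PSMD4 and PSMD2 had GC contents of 56.1%, 58.6%, 53.1% and 54.3%, while PSMA2 had 39.9% and PSMD5 41.2%; the median over all genes was 48.7%. With the trend on GC content and length removed, log2 ratios were 0.46 for PSMC3, 0.31 for PSMD3, 0.44 for PSMD4, 0.61 for PSMD2, -0.21 for PSMA2 and -0.39 for PSMD5. These 6 genes were picked for their ratios, and other genes did not follow them: PSMC2 had a GC content of 38.5% and a ratio of 0.39, PSMD8 one of 57.4% and a ratio of 0.07. Of the 32 core and cap genes 15 were smaller in size with the trend removed, 11 were larger, such as PSMC2 (0.57) and PSMD12 (0.28), and 6 had the opposite sign, such as PSMC6 (0.07) and PSMD8 (-0.09). The cap median was 0.23 and the core median 0.05. The part of GC content in these differences was not tested further.

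Genes that act with the proteasome were taken from 4 lists, 31 genes in all, of which 31 reached 1 FPKM. In total 21 were higher and 10 lower, with a median of 0.15, and 3 were 1.5-fold or more higher (background 9.82%) and 2 that much lower (8.91%). Apart from SEM1 and ADRM1, the genes named are among the 2 highest and 2 lowest ratios of each list.

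Of the 12 proteasome-associated genes 8 were higher, with a median of 0.12. ZFAND5, a zinc finger protein that activates the proteasome, stood at 9.70 FPKM in si-NC and 26.1 in si-v (1.34; 1.34 on fragments, 1.15 to 1.53). PAAF1, a regulator that binds the ATPases, stood at 7.02 and 10.2 (0.48; 0.26 on fragments, -0.05 to 0.56). USP14, the deubiquitinase of the cap that trims ubiquitin chains, was lower at 58.3 and 35.6 (-0.70; -0.78 on fragments, -0.89 to -0.68), and TXNL1, a thioredoxin-like cap protein, stood at 15.8 and 12.2 (-0.35; -0.12 with the trend on GC content and length removed). ADRM1, a ubiquitin receptor of the cap, stood at 107 and 146 (0.44; 0.44 on fragments, 0.35 to 0.53). Its ratio was -0.11 with its most abundant transcript alone and 0.19 with the trend on GC content and length removed.

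The list of transcriptional control held 5 genes with a median of 0.05. NFE2L1, the factor that induces subunit genes, stood at 43.8 FPKM in si-NC and 60.3 in si-v (0.45; 0.48 on fragments, 0.38 to 0.59). VCP, the ATPase that pulls NFE2L1 from the endoplasmic reticulum, stood at 51.5 and 67.7 (0.39; 0.46 on fragments, 0.38 to 0.55). NFE2L2, the related oxidative stress factor, was lower at 45.05 and 27.6 (-0.69; -0.71 on fragments, -0.84 to -0.57). NGLY1, which removes sugars from NFE2L1, stood at 13.7 and 12.1 (-0.17; fragment interval -0.29 to 0.16). With the most abundant transcript alone the ratio was 0.84 for NFE2L1, -4.52 for NFE2L2 and -3.36 for NGLY1, and for VCP it was 0.44.

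Shuttle proteins carry ubiquitinated substrates to the cap. SQSTM1, an autophagy receptor that also shuttles, stood at 123 FPKM in si-NC and 194 in si-v (0.65; 0.67 on fragments, 0.61 to 0.73). UBQLN2 and UBQLN1, the ubiquilins, were lower at 11.1 and 7.54 (-0.50) and at 34.4 and 26.4 (-0.37). The list of 8 had 5 genes higher and a median of 0.32.

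Ubiquitin genes and the enzymes that activate ubiquitin had 5 of 6 higher and a median of 0.24. RPS27A, which encodes ubiquitin fused to a ribosomal protein, stood at 209.7 FPKM in si-NC and 296 in si-v (0.49; 0.42 on fragments, 0.35 to 0.50), and at a ratio of 0.10 with its most abundant transcript alone. The polyubiquitin gene UBB stood at 155 and 164 (0.08). UBA6, an alternative activating enzyme, was lower at 21.3 and 13.9 (-0.58; -0.53 on fragments, -0.62 to -0.43; -0.29 with the trend removed).

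**Figure D5:**
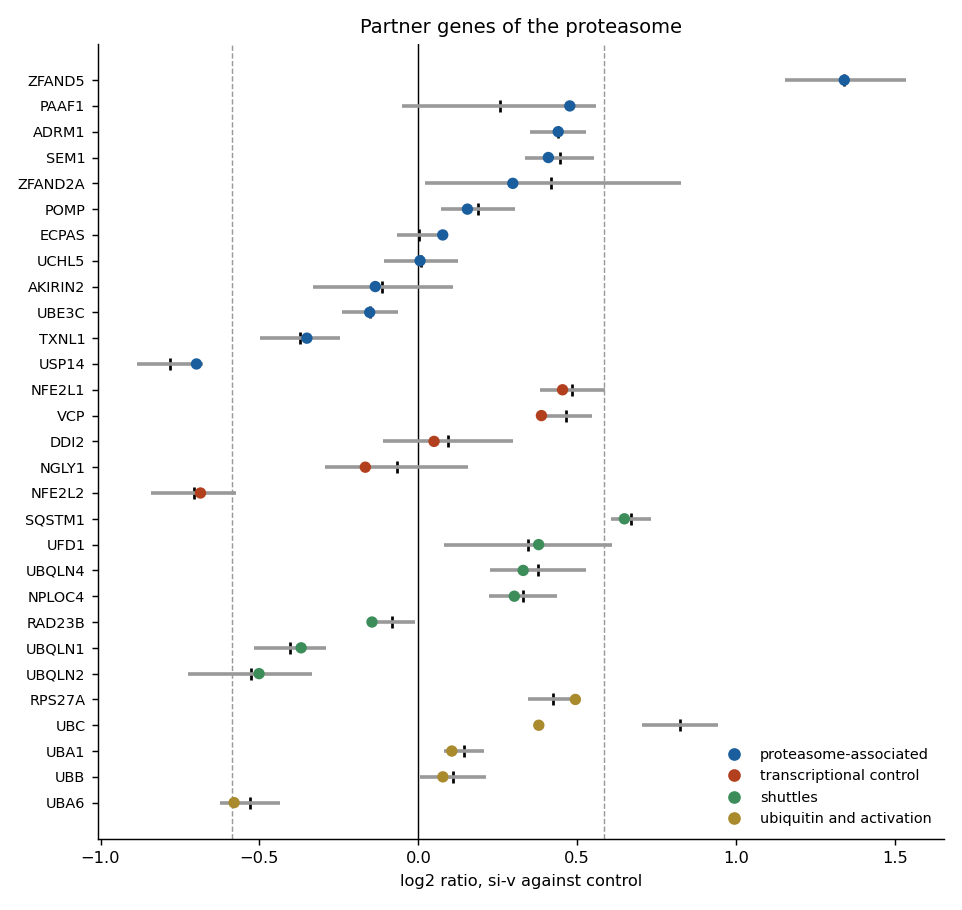
Log2 ratio of si-v to control for 29 of the 31 partner genes (rows, coloured by list), with black ticks and grey bars for approximate fragments and their 95% counting interval and dashed lines at 1.5-fold. ZFAND5 at 1.34 stands apart on the right, and USP14 at -0.70 and NFE2L2 at -0.69 on the left.

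As NFE2L1 binds antioxidant response elements, promoters were searched for TGACNNNGC on both strands, in RefSeq promoters (GRCh38.p14, 250 bases before to 50 after the start). Of the 45 genes 39 had 1 or more promoters in that table. The 6 without were the core genes PSMA7, PSMB1, PSMB6 and PSMB7, with PSMD4 and PSMG3. All 6 were higher in si-v, among them PSMG3, the largest ratio of the 45, so the genes searched leave out only higher ones. The motif was in a promoter of 14 of these 39 (35.9%), against 16.1% of the 27305 genes of the table, which were not filtered by gene type or level. It was in 2 of 11 core genes (18.2%), 5 of 16 cap genes (31.25%) and 7 of 12 others (58.3%). The core share was thus close to that of the table. CCAAT was in 19 of 39 (48.7%, against 39.7%) and TATAA in 4 (10.3%, against 24.2%).

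The motif lies wholly before the start in 5 core and cap genes; the stretches of 4 are shown to set the element beside the gene's ratio, with the motif in capitals. That of PSMC5 overlaps annotated untranslated exons and is not shown.
PSMA4, chr15:78540644-78540684, plus strand: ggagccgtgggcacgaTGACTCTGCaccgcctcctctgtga
PSMB3, chr17:38752621-38752661, plus strand: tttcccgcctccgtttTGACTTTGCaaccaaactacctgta
PSMD12, chr17:67366718-67366758, minus strand: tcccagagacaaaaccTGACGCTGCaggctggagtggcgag
PSMD3, chr17:39980754-39980794, plus strand: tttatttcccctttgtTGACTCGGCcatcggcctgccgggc

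The 5 genes had log2 ratios of -0.06 (PSMA4), -0.15 (PSMB3), -0.20 (PSMC5), 0.07 (PSMD12) and 0.47 (PSMD3). Over all 14 genes with the motif the median was -0.05, with 6 higher, and over the 25 without it 0.09, with 17 higher. By class, 0 of 2 core genes with the motif and 6 of 9 without it were higher. In the cap 3 of 5 and 8 of 11 were higher, and among the others 3 of 7 and 3 of 5. The 6 genes not searched, all higher, are in neither group, so the contrast could differ with them. The match is of letters only, and no binding was measured.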

How the data were processed

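The authors' deposited table gives 1 value per transcript and library, read here as FPKM. The header names no unit; values times transcript length summed to 71.4% (si-NC) and 69.9% (si-v) of the total that FPKM allows. The submitters' processing notes name cutadapt, HISAT2 2.0.5, StringTie and hg19, without settings. The annotation release, strand setting and filters were not given in the sources used here.

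Of 39605 transcripts 99.5% matched GENCODE 29 by identifier without version (GRCh38, used for symbols, lengths, GC content and exon structure); the 179 others held 0.321% and 0.355% of the FPKM. FPKM was summed per gene, and 11046 genes reached 1 FPKM. The log2 ratio used a pseudocount of 1, which understates differences of low genes, and folds of 1.5 and 2 were counted. With 1 library per group no test was made.

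Fragments are approximate: value times length, divided by the worth of 1 fragment (91.1 in the control, 84.1 in si-v), read from a peak of low values in genes with 1 listed transcript. Of 62 and 53 values near it 74.2% and 69.8% lay within 5%, so whole counts were not recovered. Log2 ratios on fragments are scaled to each library's total, without pseudocount. Intervals cover counting error only. Of the 45 genes 12 have annotated pseudogenes and 3 an annotated antisense gene, among which reads may have been divided.

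The members, gene lists and motifs were chosen with earlier results of these data known. All members are named; partner genes are named by the 2 highest and 2 lowest ratios of each list, of which 2 genes are not reported here but stay in the counts and medians. SEM1 and ADRM1 are named outside this rule, after their values were seen. Steps were tested on simulated data. Python 3.11.15, pandas 2.3.3 and scipy 1.17.1 were used.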

Additional observations from a re-analysis of the deposited data

How the results depend on the processing

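The results were recomputed under 9 alternatives, of which removing the trend on GC content and length was chosen after seeing the data. Here, fragments per gene are rescaled to summed FPKM so that the pseudocount of 1 applies. Of the 45 genes 19 were higher and 11 lower in all 10 settings. A change of filter or pseudocount cannot turn the sign of a gene's ratio, so those settings add no check of direction. When each gene was represented by its most abundant transcript (by the mean of the 2 libraries), the cap median was -0.016 and cap minus core -0.12. Of the 32 core and cap genes 17 were then higher, against 22 on summed FPKM. The median of proteasome-associated genes was -0.037 and the log2 ratio of PSMD2 -0.99. In this setting 4 of the 45 genes were 1.5-fold or more lower in si-v (PSMC2, PSMD2, PSMD10, PSMG2). So were 14.4% of all genes, against 8.91% on summed FPKM. Another 2 genes were 2-fold or more higher (PSMA5, PSMD9), and the share of all genes at 2-fold is not given for this setting. The genes named have several transcripts, of which this setting keeps 1. In all, 7 of the 45 genes had the opposite sign under it. Among partner genes it gave -4.52 for NFE2L2 (against -0.69), -3.36 for NGLY1 (-0.17), 0.84 for NFE2L1 (0.45), 0.73 for PAAF1 (0.48) and 0.10 for RPS27A (0.49). For ADRM1 it gave -0.11 (0.44). On fragments per gene the cap median was 0.10 and only PSMG3 was 1.5-fold or more higher, 1 gene against 3. The share of all genes was then 9.13%, against 9.82%. With the trend removed 1 gene was that much higher too (PSMD2), and so were 7.34% of all genes. The medians were then 0.22 for transcriptional control and 0.11 for ubiquitin and activation, and the cause was not tested. With a pseudocount of 5 the shares of all genes at 1.5-fold were 4.10% higher and 3.54% lower, against 9.82% and 8.91%. No paired analysis was possible because each group has 1 library, and no library could be left out.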
